A study of Homo sapiens with 15 samples.

Results

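The replication-dependent histone genes were taken from the GENCODE v44 annotation as the protein_coding genes named H1-1 to H1-6, or H2AC, H2BC, H3C or H4C followed by a number. The rule gave 69 genes of 20033 protein_coding genes on chromosomes 1 to 22, X and Y: 6 H1, 17 H2A, 18 H2B, 13 H3 and 15 H4 genes. They were measured by ATAC-seq, in which the Tn5 transposase cuts accessible DNA, in RPTEC, a human renal proximal tubule epithelial line that was immortalized with hTERT and kept under G418. There were 5 groups of 3 libraries each. WT was the parental line, with SETD2, the enzyme that places H3K36me3, intact. KO1 and KO2 were single clones with frameshifts in both SETD2 alleles, made with Cas9 and a guide to exon 3 of the gene. Rescue1 and Rescue2 were single clones of knockout cells that received full-length SETD2 with a FLAG tag from a lentivirus and were selected with blasticidin, and the study's quality sheet names both after the clone it calls KO2. Each clone was a single line, and nothing in the labels said that the 3 libraries of a group came from separate cultures, so the p-values below measure only the spread between these libraries.

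Replication-dependent histone genes make the bulk of the core and linker histones that package new DNA in S phase. They are short and mostly without introns, and their mRNAs end in a stem-loop and not in a poly(A) tail. Most sit in clusters that gather in the histone locus body, the nuclear compartment organized by NPAT. H2A and H2B genes often stand head to head and share a promoter region. H2A, H2B, H3 and H4 form the nucleosome core, and H1 binds the linker DNA between cores.

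The 69 genes fell into runs with less than 500 kb between neighbours, in hg38. On chromosome 6 there were 34 genes in the first cluster (chr6:25723397-26285638), 5 in the second (chr6:27125897-27147562) and 16 in the third (chr6:27807479-27893891). Chromosome 1 held 11 genes in one cluster (chr1:149782689-149887965) and 2 in another (chr1:228434777-228463104), and H4C16 stood alone on chromosome 12. The genes ran from 386 bases to 37610 bases in the annotation, although the longest MANE Select transcript, the agreed representative form, had 2224 bases. The longer genes include extended isoforms, such as that of H2BC4, which reaches over H4C3 and H1-6. With 1 kb added on each side the 69 windows merged into 37 stretches, and 55 genes shared a stretch with another, so a single peak could count for several genes.

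Because the results turn on which promoters carried a called peak, the promoters of 9 genes are shown first, from 250 bases before to 50 bases after the start, as RefSeq gives them for GRCh38.p14. Capitals mark 3 motifs, each searched on both strands with overlaps counted. The CCAAT box is spelled CCAAT, with ATTGG on the other strand. The TATA box is spelled TATAAA, with TTTATA on the other strand. The octamer is spelled ATTTGCAT, with ATGCAAAT on the other strand. The promoters of 4 H4 genes differ in their peaks: H4C13 (chr6:27873485-27873784, minus strand) had a peak in all KO and rescue libraries and in no WT library, H4C5 (chr6:26204360-26204659, plus strand) in every library, and H4C6 (chr6:26240143-26240442, plus strand) and H4C9 (chr6:27139032-27139331, plus strand) in none.
H4C13: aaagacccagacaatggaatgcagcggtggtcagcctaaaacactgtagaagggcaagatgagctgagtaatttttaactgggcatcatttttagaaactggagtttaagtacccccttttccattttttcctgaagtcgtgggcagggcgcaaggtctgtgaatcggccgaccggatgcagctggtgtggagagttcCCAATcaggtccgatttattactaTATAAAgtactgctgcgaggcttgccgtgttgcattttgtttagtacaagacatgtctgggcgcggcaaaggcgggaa
H4C5: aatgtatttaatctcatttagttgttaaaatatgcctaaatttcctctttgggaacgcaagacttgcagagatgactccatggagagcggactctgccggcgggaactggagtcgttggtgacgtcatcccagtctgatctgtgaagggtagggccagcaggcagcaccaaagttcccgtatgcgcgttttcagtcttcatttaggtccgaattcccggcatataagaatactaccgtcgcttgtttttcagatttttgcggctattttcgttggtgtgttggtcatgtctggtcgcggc
H4C6: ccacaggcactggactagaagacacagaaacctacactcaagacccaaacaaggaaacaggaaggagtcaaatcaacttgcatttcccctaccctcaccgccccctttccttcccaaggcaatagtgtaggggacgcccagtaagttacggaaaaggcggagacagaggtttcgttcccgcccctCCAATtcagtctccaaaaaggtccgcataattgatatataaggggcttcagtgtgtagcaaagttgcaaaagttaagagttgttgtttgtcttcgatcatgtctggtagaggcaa
H4C9: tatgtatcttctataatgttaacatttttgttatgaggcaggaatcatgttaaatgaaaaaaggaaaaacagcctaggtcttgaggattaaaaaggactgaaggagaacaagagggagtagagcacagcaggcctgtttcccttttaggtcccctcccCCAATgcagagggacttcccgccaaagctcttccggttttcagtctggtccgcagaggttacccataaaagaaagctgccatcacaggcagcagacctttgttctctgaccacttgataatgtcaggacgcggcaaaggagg

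The H2B pair was chosen the same way. H2BC6 (chr6:26183511-26183810, plus strand) had a promoter peak in 3 WT and 2 KO1 libraries and in no other, and H2BC8 (chr6:26216639-26216938, minus strand) had one in every library.
H2BC6: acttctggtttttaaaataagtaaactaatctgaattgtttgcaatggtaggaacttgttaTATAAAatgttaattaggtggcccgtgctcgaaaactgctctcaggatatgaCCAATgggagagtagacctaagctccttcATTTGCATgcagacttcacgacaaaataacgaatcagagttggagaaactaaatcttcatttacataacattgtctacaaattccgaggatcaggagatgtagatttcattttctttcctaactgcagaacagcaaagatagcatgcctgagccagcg
H2BC8: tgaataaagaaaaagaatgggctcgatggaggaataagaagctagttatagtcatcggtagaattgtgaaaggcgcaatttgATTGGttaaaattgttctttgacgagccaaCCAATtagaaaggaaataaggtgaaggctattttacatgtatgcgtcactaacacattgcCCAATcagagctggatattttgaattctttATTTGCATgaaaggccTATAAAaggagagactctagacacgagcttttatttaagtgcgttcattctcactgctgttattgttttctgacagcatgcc

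The promoters of 3 linker histone genes whose windows were called in a comparison below are those of H1-5 (chr6:27867539-27867838, minus strand), H1-1 (chr6:26017738-26018037, minus strand) and H1-2 (chr6:26056421-26056720, minus strand).
H1-5: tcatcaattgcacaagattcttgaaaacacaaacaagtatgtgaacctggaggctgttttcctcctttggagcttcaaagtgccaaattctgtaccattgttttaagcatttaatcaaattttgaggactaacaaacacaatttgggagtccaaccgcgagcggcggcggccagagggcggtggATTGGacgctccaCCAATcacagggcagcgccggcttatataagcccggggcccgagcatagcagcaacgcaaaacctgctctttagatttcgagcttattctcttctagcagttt
H1-1: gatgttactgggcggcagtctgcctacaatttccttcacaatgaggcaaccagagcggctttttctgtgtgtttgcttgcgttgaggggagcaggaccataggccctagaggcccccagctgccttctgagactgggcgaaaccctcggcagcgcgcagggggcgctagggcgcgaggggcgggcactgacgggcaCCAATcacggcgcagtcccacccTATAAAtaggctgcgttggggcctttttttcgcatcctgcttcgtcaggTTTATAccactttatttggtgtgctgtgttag
H1-2: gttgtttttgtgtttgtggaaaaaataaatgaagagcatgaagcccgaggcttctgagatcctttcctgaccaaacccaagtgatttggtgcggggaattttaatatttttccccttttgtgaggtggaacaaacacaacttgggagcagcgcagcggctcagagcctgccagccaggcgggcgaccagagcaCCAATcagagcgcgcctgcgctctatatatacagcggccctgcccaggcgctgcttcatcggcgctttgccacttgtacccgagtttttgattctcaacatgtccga

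Of the 69 genes, 64 matched a promoter in the RefSeq table, and all 64 sequences were equal to hg38 at their coordinates. H3C12, H4C1, H4C3, H2AC12 and H3C11 were not matched. The CCAAT box was in every H1 (6 of 6), H2A (16 of 16), H2B (18 of 18) and H3 (11 of 11) promoter and in 3 of 13 H4 promoters, against 35.6% of the promoters of all 27305 genes in the table. The 3 H4 promoters with CCAAT were those of H4C13, H4C6 and H4C9, which had no promoter peak in any WT library. Among the H4 promoters without CCAAT, that of H4C7 had no peak in any library and all others had one in every library. These are matches of letters and not binding sites. Over all families, CCAAT was in 45 of 54 promoters of genes with a window peak in every library. It was also in 7 of 8 promoters of genes with none. The H4 pattern was described after the peaks were seen and was not tested. The octamer, which the OCT1 factor encoded by POU2F1 can bind, was in 11 of 16 H2A and 14 of 18 H2B promoters. It was in none of the H1, H3 and H4 promoters and in 1.82% of all promoters. Head-to-head genes such as H2AC8 and H2BC8 share most of their promoter bases, so a match can count in both families. TATAAA was in 42 of 64 histone promoters and in 12.1% of all promoters. The median GC content was 43.7% for histone promoters and 58% for all promoters, and it was 46% for the 8 histone genes without a peak.

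Peaks were present over most of the gene family in every library, as over most protein_coding genes. A gene counted as having a peak when its window, the gene plus 1 kb on each side, shared at least 1 bp with a called peak. In 14 of the 15 libraries 61 of 69 genes had one, and in KO1 replicate 1 it was 59. Of all protein_coding genes, 87.03% (KO1 replicate 1) to 89.9% (Rescue2 replicate 1) had one in a single library. Across all 15 libraries 59 of 69 genes (85.5%) had a peak every time, compared with 83.6% of all protein_coding genes, and 8 (11.6%) never had one, compared with 7.47%. Around the annotated start alone, 1 kb on each side, the shares were 84.1% of histone genes and 65.4% of all genes. H2AC14 and H2BC14 shared a single peak that was missing from KO1 replicate 1.

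The 8 genes with no peak in the lists used here lay in the first and second clusters of chromosome 6. H2AC1, H2BC1 and H1-6 are the testis forms of H2A, H2B and H1. H4C6, H4C7, H3C7 and H2BC9 are neighbours between H1-3 and H3C8 and formed an unbroken run without a peak in any of the 15 libraries. H4C9 was the only gene of its 5-gene cluster without one. A window without a called peak is one below the calling threshold and need not be closed. Of 7 other protein_coding genes inside the cluster spans, 5 had a peak in every library, and so did 10 of 15 histone pseudogenes with their flanks, while 3 of the 15 pseudogenes had none. Without flanks, a peak lay over 5 of the 15 pseudogenes and over the MANE transcripts of 56 of the 69 genes in every library.

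**Figure D1:**
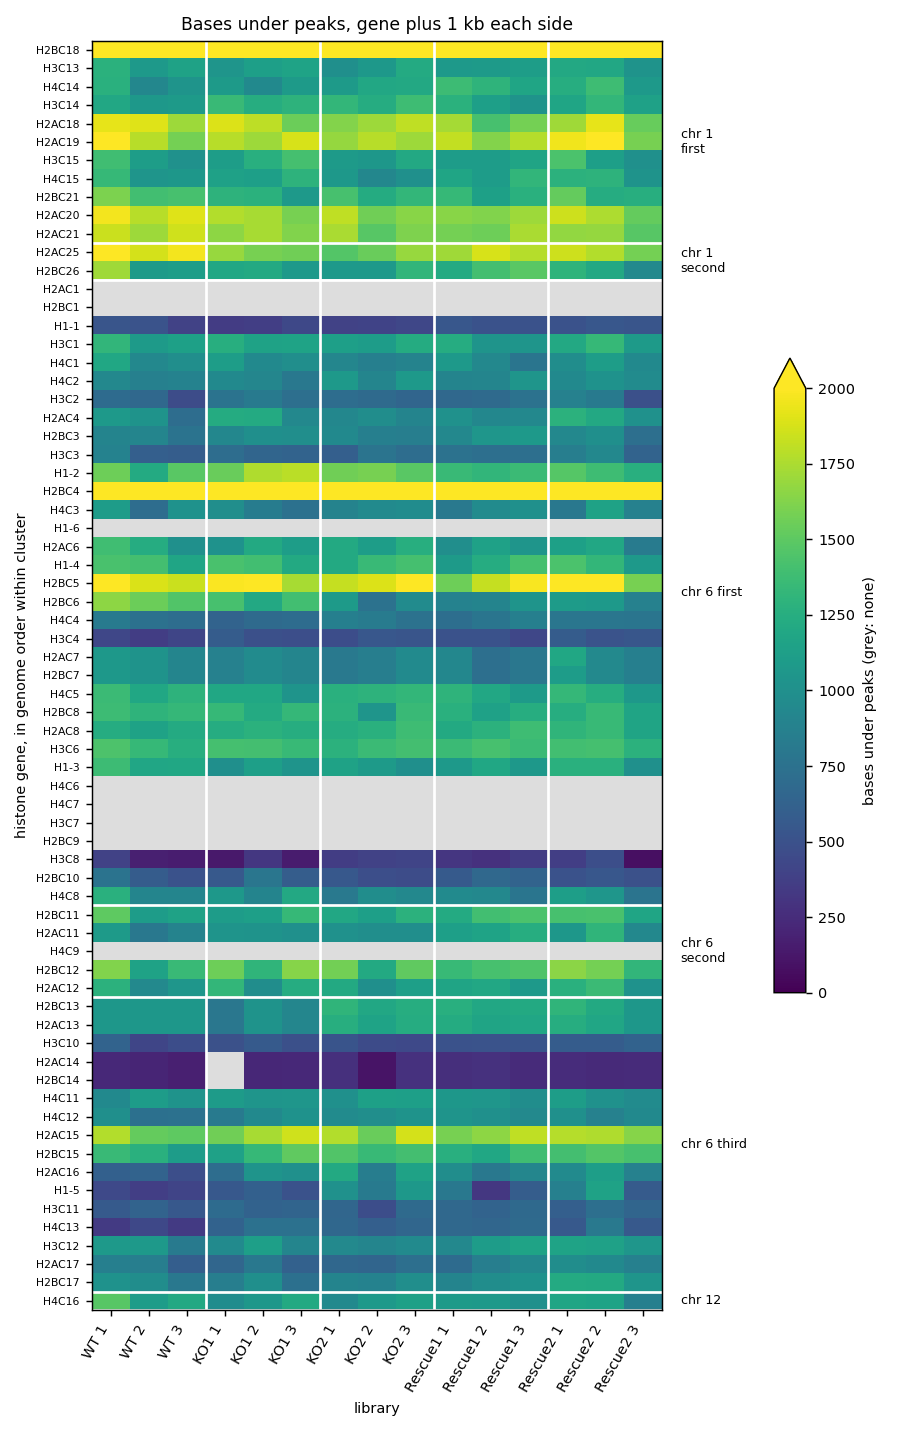
Bases under peaks in the window of each histone gene (rows, genome order within cluster) in each of the 15 libraries (columns), with grey where no peak lay in the window. The 8 grey rows are the genes with no peak in any library, and colour changes more from row to row than from column to column.

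The peaks sat on the starts of the genes. Averaged over the 15 libraries, 92.1% of the 61 genes with a peak were under one at the first base of the MANE transcript, between 88.5% and 95.1% in single libraries. At 300 bases downstream it was 73.2%, at 400 bases 41.1% and at 500 bases 14.5%, and farther out it rose again, to 31.4% at 850 bases. In the 5 H1 genes with a peak, whose MANE transcripts run from 731 to 797 bases, the share was 49.3% at 350 bases, 10.7% at 500 bases and 62.7% at 1000 bases, past their ends. The families differed upstream. At 300 bases before the start 70.4% of the 16 H2A genes and 72.1% of the 16 H2B genes were under a peak, compared with 34.4% of the 12 H4 genes, 17.8% of the 12 H3 genes and 0% of the 5 H1 genes. Each share averages over genes whose shared peaks make them dependent, and no test was made.

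**Figure D2:**
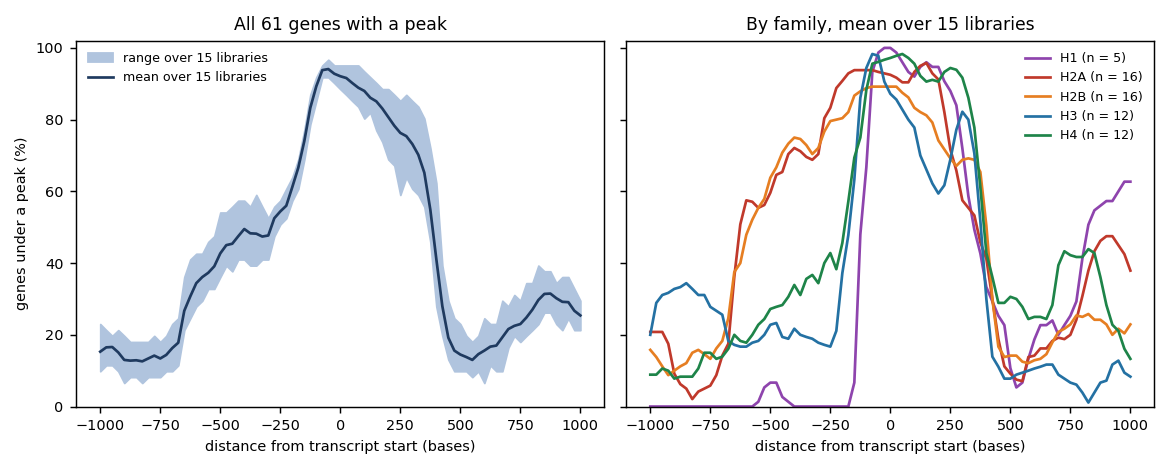
Share of the 61 histone genes under a peak (y axis, %) by distance from the start of the MANE transcript (x axis, bases), as the mean and range of the 15 libraries (left) and by family (right). Coverage is 92.1% of genes at the start and falls to 14.5% at 500 bases downstream, and H2A and H2B lie above the other families 300 bases before the start, at 70.4% and 72.1% of genes.

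The amount of covered sequence was given as bases under peaks in a window. The strongest peak of each window was ranked by −log10 p among all peaks of its library. It stood above a median of 75.4% of them for the genes on chromosome 6 and 73.5% for those on chromosome 1. A window can hold several peaks and only the strongest was ranked, and no such value for all genes was set beside it. Within families, the H2B gene with the most bases on average was H2BC4 (3632), whose window spans 39610 bases, and within H2A it was H2AC19 (1792). The leading H1 gene was H1-2 with 1477 bases, the leading H3 gene H3C6 with 1365 and the leading H4 gene H4C5 with 1226. By cluster, H2BC4 led the first of chromosome 6, H2BC12 (1446) the second and H2AC15 (1692) the third, and H2BC18 (2349) and H2AC25 (1742) led those of chromosome 1. H4C16, alone on chromosome 12, had 1104. The lowest values were those of H2AC14 and H2BC14, both 218, and H3C8, with 293.

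Over the merged windows the 69 genes had 46451 to 54476 bases under peaks in WT, 47330 to 50557 in the 6 KO libraries and 44767 to 53617 in the 6 rescue libraries, and these ranges overlapped. Relative to all bases under peaks of the same library the histone windows held 956 ± 15.3 bases per Mb over the 3 WT libraries, 877 ± 30.5 over the 6 KO libraries and 853 ± 37.2 over the 6 rescue libraries (SD). The lowest WT library, at 939, lay above the highest KO library, at 903, while the total under peaks was between 49.4 and 56.2 Mb in WT, 52.4 and 61.5 Mb in KO and 53.15 and 65.15 Mb in rescue. The part of the list lengths in this share was not tested. Clusters differed in level between groups in only some cases. The third cluster of chromosome 6 had 7444 to 8570 bases in WT, 7809 to 9241 in KO1, 8891 to 9880 in KO2 and 8913 to 9968 in rescue, so KO2 and rescue lay above WT without overlap. The small chromosome 1 cluster of H2AC25 and H2BC26 had 2089 to 2485 bases in WT and 1632 to 1947 in KO, without overlap, and 1693 to 2298 in rescue. For the first clusters of chromosomes 6 and 1 and the second of chromosome 6 the WT, KO and rescue ranges overlapped.

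The comparison of KO with WT asked whether loss of SETD2 changed the covered sequence at these genes. For this, limma was fitted to log2(bases + 100) for the 18216 windows with a peak in at least 3 libraries, 61 of them histone windows, and a window was called at a Benjamini-Hochberg adjusted p under 0.05. In KO, 3 histone genes rose (H4C13, H1-5 and H2AC16), where 14.4% of all windows rose, and 2 fell (H2BC6 and H2AC25), where 12% of all windows fell. Called genes thus made up 8.2% of the histone windows. The median log2 difference was −0.03 for histone windows and −0.01 for all windows, and 55 of the 61 (90.2%) lay within 0.25 of zero, against 67.8% of all windows. The median histone window was 2508 bases long and the median tested window 33935 bases. A peak was in every library for 59 of the 61, while a tested window needed one in only 3 libraries. No background matched for this was used here or for rescue. With 1 kb on each side of the annotated start, where all windows have one length, 3 histone genes of 61 were called in either direction and 12.4% of all windows.

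H4C13, an H4 gene of the third chromosome 6 cluster (chr6:27873148-27873534), had the largest log2 difference, with H1-5 and H2AC16 close to it and within its error. Its window held 337, 430 and 337 bases in WT, 627, 749 and 743 in KO1, and 667, 603 and 659 in KO2. It held 675, 664 and 691 bases in Rescue1 and 556, 808 and 560 in Rescue2. All KO and rescue libraries were above all WT libraries. The log2 difference of KO from WT was 0.73 ± 0.12 (SE), 1.66-fold on the scale with 100 bases added, with a limma adjusted p of 0.000162. All WT bases came from flanking sequence toward H3C11, since no WT peak touched the H4C13 transcript, whereas 12 of 12 KO and rescue libraries had a peak there. The transcript, 387 bases long, was covered over 209, 289 and 347 bases in KO1, 247, 178 and 276 in KO2, 259, 270 and 264 in Rescue1, and 207, 365 and 223 in Rescue2. These were peaks of middle to low rank, with a −log10 q of 4.89 to 10.4, above 22.2% to 49% of the peaks of their lists. Rescue did not differ detectably from KO, with a log2 difference of −0.03 ± 0.10 and a limma adjusted p of 0.821.

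H1-5, a linker histone gene, and its neighbour H2AC16 stand tail to tail 993 bases apart in the same cluster. The H1-5 window held 438, 370 and 407 bases in WT, 547, 614 and 503 in KO1, 1010, 817 and 1064 in KO2, 802, 328 and 586 in Rescue1 and 870, 1149 and 571 in Rescue2. Each KO library was above each WT library, and the Rescue1 libraries overlapped WT. The log2 difference of KO from WT was 0.72 ± 0.20, with a limma adjusted p of 0.0113. For H2AC16 the values were 615, 637 and 483 in WT, 716, 1033 and 1001 in KO1, 1213, 844 and 1149 in KO2, 980, 802 and 917 in Rescue1 and 958, 1124 and 878 in Rescue2. Every KO and rescue library exceeded every WT library. Its difference in KO was 0.68 ± 0.13, with a limma adjusted p of 0.000779. It was lost in 4 of 25 alternatives, and with lists of equal length the difference was 0.03 with a limma adjusted p of 0.923.

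Most of the added sequence in both windows lay between the genes. The 993 bases between their 3′ ends (chr6:27865799-27866791) were under peaks over 121, 0 and 0 bases in WT, 237, 402 and 362 in KO1, 593, 370 and 604 in KO2, 348, 178 and 190 in Rescue1 and 340, 643 and 232 in Rescue2. WT averaged 40.3 ± 69.9 bases over 3 libraries, the 6 KO libraries 428 ± 144 and the 6 rescue libraries 322 ± 173 (SD), and the lowest KO and rescue values were above the highest WT value. Around the H1-5 start alone, 1 kb on each side, the log2 difference of KO from WT was −0.01 with a limma adjusted p of 0.995, and the call was absent there. Without WT replicate 2 the H1-5 call was lost, with a log2 difference of 0.67 and a limma adjusted p of 0.0531. The calls of H1-5 and H2AC16 share this interval and are not independent.

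**Figure D3:**
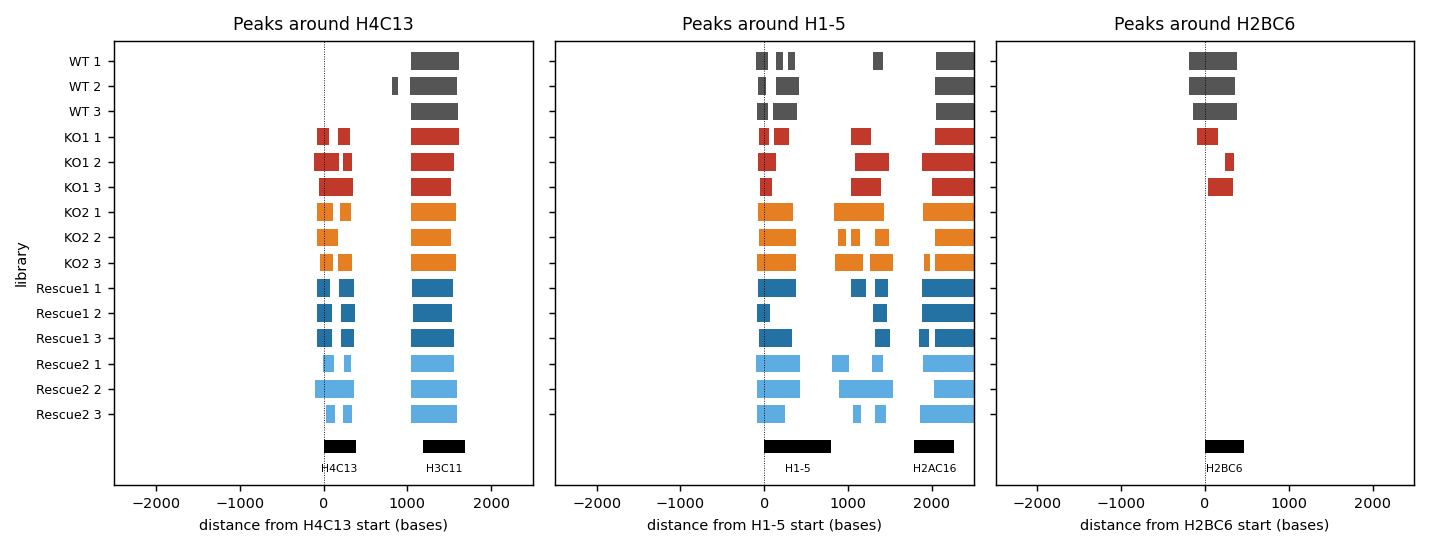
Called peaks (coloured bars) in the 15 libraries (rows) within 2500 bases of the starts of H4C13, H1-5 and H2BC6 (x axis, distance in bases in the direction of transcription), with MANE transcripts in black. Peaks over H4C13 appear in the 12 KO and rescue libraries and in no WT library. Between H1-5 and H2AC16, peaks cover more bases in every KO and rescue library than in any WT library. The H2BC6 peak is absent from KO2 and both rescue clones.

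H2BC6 was the histone gene whose covered sequence fell most. Over the annotated gene with its flanks, 14597 bases in all, the values were 1659, 1549 and 1457 in WT, 1421, 1205 and 1392 in KO1 and 1086, 751 and 962 in KO2. They were 886, 905 and 1036 in Rescue1 and 1098, 1081 and 880 in Rescue2. Each KO and rescue library was below each WT library, and the KO2 libraries were below those of KO1. In KO the difference from WT was −0.45 ± 0.10, with a limma adjusted p of 0.00342. The annotated gene starts far upstream of the coding transcript, so the transcript was also examined on its own (chr6:26183761-26184230). It was under a peak over 379, 356 and 379 of its 470 bases in WT and over 159, 115 and 304 in KO1. No peak touched it in the 3 KO2, 3 Rescue1 and 3 Rescue2 libraries.

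With the MANE transcript plus 1 kb as the window, an alternative chosen after seeing the data, H2BC6 held 573, 548 and 524 bases in WT and 251, 115 and 304 in KO1 and was listed at 0 in the other 9 libraries. KO1 was below WT there by a log2 difference of −1.05 ± 0.24 (limma adjusted p of 0.00377), and KO2 was below KO1 with a limma adjusted p of 0.00041. The WT peaks had a −log10 q of 10.7 to 18.9 and the KO1 peaks of 2.94 to 6.65. The rescue clones, which the study names after KO2, had no peak at this transcript, as KO2 had none.

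H2AC25, an H2A gene of the small chromosome 1 cluster, fell as well. Its window, 25097 bases long, held 2190, 1869 and 1961 bases in WT, 1691, 1587 and 1570 in KO1 and 1462, 1541 and 1692 in KO2. In rescue it held 1712, 1881 and 1777 (Rescue1) and 1847, 1772 and 1582 (Rescue2). KO lay below WT without overlap, and rescue overlapped both. The log2 difference of KO from WT was −0.32 ± 0.07, with a limma adjusted p of 0.00406. In the MANE transcript plus 1 kb it was −0.06 ± 0.12, with a limma adjusted p of 0.776, and the called difference lay in the rest of the annotated gene.

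The exact permutation test of the library labels gave p = 0.0238 for each of these 5 genes, the smallest value that the 84 splits of 3 and 6 libraries allow. After Benjamini-Hochberg adjustment over all windows this was 0.104 in the exact test, which could call no window in this comparison. By count, 5 histone genes had every KO library above every WT library (H4C13, H1-5, H2AC16, H3C4 and H3C14), as did 12.3% of all windows, and 3 had every KO library below (H2BC6, H2AC25 and H1-3), as did 10.7%. H3C4, H3C14 and H1-3 are named here for their ranges, after their values were seen. H3C4 had 365 to 429 bases in WT and 470 to 580 in KO, and H1-3, a linker histone gene, had 1180 to 1371 in WT and 993 to 1155 in KO. H3C14 had 1068 to 1201 in WT and 1236 to 1376 in KO.

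The chromosome 1 copies could not be separated with confidence. H4C14 and H4C15 with 1 kb on each side of the MANE transcript were 100% identical, H3C14 and H3C15 99.8% and H2AC18 and H2AC19 95.2%. All 50-base words in the H3C14, H3C15, H4C14 and H4C15 windows recurred in the windows of another histone gene, as did 90.4% of those in the H2AC18 window. How reads were shared between such copies was not stated, and values of these 6 genes are uncertain.

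When the lists were cut to the 150000 peaks with the highest −log10 p in each library, so that all had one length, the split of calls turned. With equal lists 1 histone gene was called higher in KO than in WT (H4C12), against 11.6% of all windows, and 5 were called lower (H1-3, H2AC25, H2BC21, H2BC6 and H2BC8), against 15.2%. H4C13, H1-5 and H2AC16 were not called under it, and the peaks over H4C13 are among those of lower rank. WT lists held 197527 to 213023 peaks, KO lists 204531 to 255339 and rescue lists 208726 to 266011. The calls for H2BC6 and H2AC25 were kept.

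**Figure D4:**
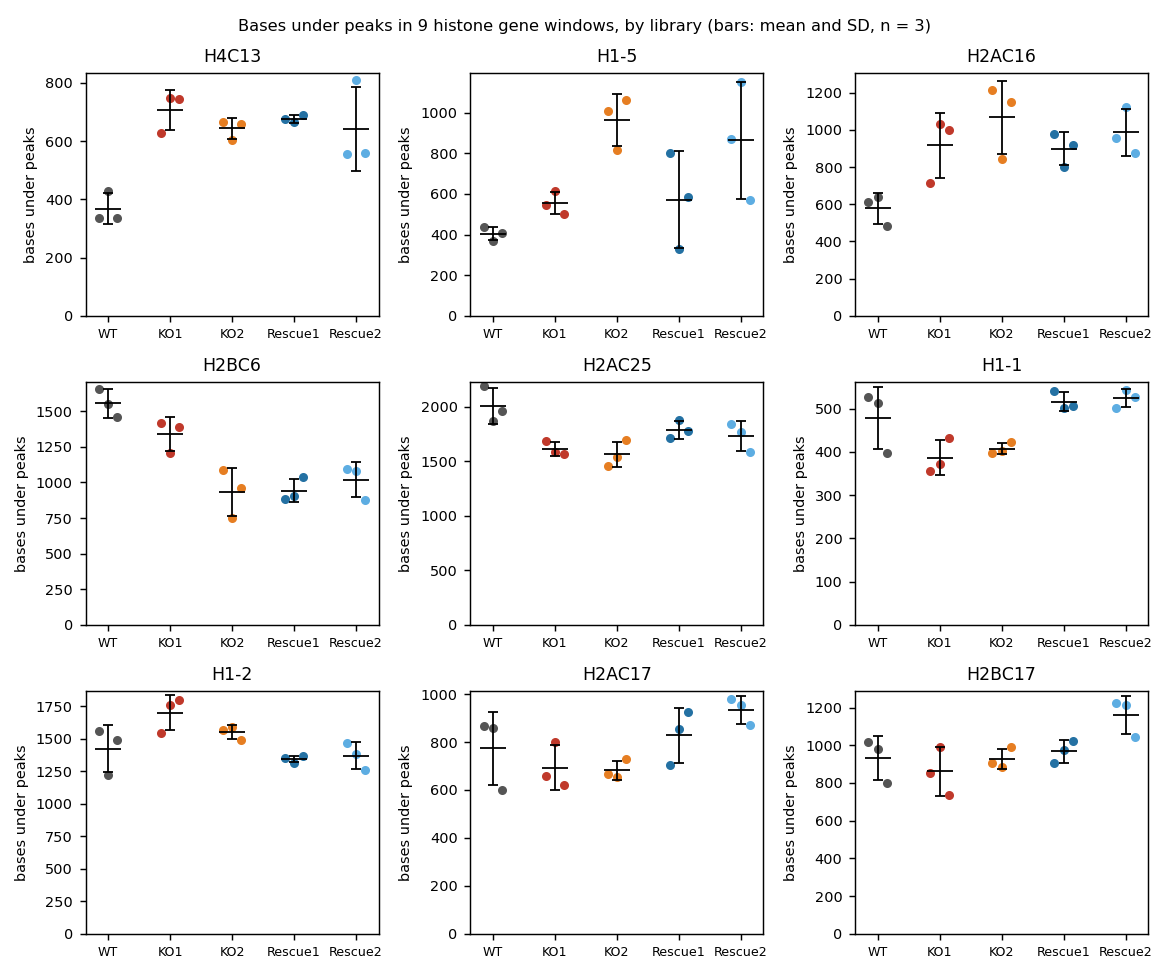
Bases under peaks (y axis) in the windows of the 9 histone genes called in KO against WT or in rescue against KO, by group (x axis), with a point for each library and a bar for the mean and SD of 3 libraries. WT is lowest for H4C13, H1-5 and H2AC16 and highest for H2BC6 and H2AC25, and rescue lies above KO for H1-1 and below it for H1-2.

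The comparison of rescue with KO asked whether the return of SETD2 changed the same windows, and it shares the KO libraries with the first. In rescue 3 histone genes rose (H1-1, H2AC17 and H2BC17), where 22.4% of all windows rose, and 1 fell (H1-2), where 7.25% of all windows fell. The median log2 difference was 0.01 for histone windows and 0.08 for all windows, and 57 of the 61 (93.4%) lay within 0.25 of zero, against 72.3% of all windows. Around the start alone 5 of 61 histone genes were called in either direction and 15.5% of all windows. For the genes called in KO against WT, the log2 differences of rescue from KO were −0.03 for H4C13, −0.10 for H1-5, −0.05 for H2AC16, −0.17 for H2BC6 and 0.14 for H2AC25. Their limma adjusted p-values were 0.821, 0.674, 0.741, 0.14 and 0.0972 in that order. In the MANE transcript plus 1 kb H2BC6 was called lower in rescue than in KO (limma adjusted p of 0.00148), where KO1 had a peak in 3 of 3 libraries and KO2 and rescue were listed at 0. With equal lists 6 histone genes were called higher in rescue than in KO, against 19.9% of all windows, and 2 lower, against 7.65%.

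The linker histone genes H1-1 and H1-2 of the first chromosome 6 cluster moved in opposite directions. H1-1 had 528, 513 and 397 bases in WT, 356, 371 and 432 in KO1, 397, 403 and 423 in KO2, 542, 501 and 506 in Rescue1 and 502, 544 and 528 in Rescue2. The 6 rescue libraries were above the 6 KO libraries, and WT overlapped both. The log2 difference of rescue from KO was 0.32 ± 0.09, 1.25-fold, with a limma adjusted p of 0.0144. H1-2 had 1559, 1221 and 1488 bases in WT, 1544, 1758 and 1794 in KO1, 1568, 1590 and 1489 in KO2, 1353, 1316 and 1364 in Rescue1 and 1469, 1378 and 1259 in Rescue2. Its 6 rescue libraries were below the 6 KO libraries, and the WT libraries spanned both. It had a log2 difference of −0.24 ± 0.07, with a limma adjusted p of 0.0106. The exact permutation test gave p = 0.00216 for both genes, the smallest that 924 splits allow, and 0.0196 after Benjamini-Hochberg adjustment. That test shuffled single libraries and took no account of the clones they came from. Against KO2 alone neither gene was called, with limma adjusted p-values of 0.195 in Rescue1 and 0.13 in Rescue2 for H1-1 and of 0.216 and 0.23 for H1-2. By count, H1-1 was the single histone gene whose rescue libraries all lay above the KO libraries, as did 8.28% of all windows, and H1-2 the single one whose libraries all lay below, as did 2.76%.

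H2AC17 and H2BC17 are a head-to-head pair at the end of the third chromosome 6 cluster and share peaks. H2AC17 had 865, 857 and 598 bases in WT, 657, 798 and 622 in KO1, 666, 653 and 728 in KO2, 703, 856 and 926 in Rescue1 and 981, 953 and 870 in Rescue2. H2BC17 had 1018, 978 and 799 in WT, 854, 993 and 736 in KO1, 905, 887 and 990 in KO2, 904, 977 and 1020 in Rescue1 and 1223, 1213 and 1044 in Rescue2. In both genes Rescue2 was above all KO libraries, and Rescue1 and WT overlapped KO. The log2 differences of rescue from KO were 0.32 ± 0.10 for H2AC17 (limma adjusted p of 0.0189) and 0.23 ± 0.08 for H2BC17 (limma adjusted p of 0.0415). The H2AC17 call was lost without Rescue1 replicate 3, with a limma adjusted p of 0.0558. The H2BC17 call was lost when any of 8 libraries was left out, namely KO1 replicates 1 and 3, KO2 replicates 1 and 2, Rescue1 replicates 2 and 3 and Rescue2 replicates 1 and 2, with limma adjusted p-values of 0.0702 to 0.113.

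**Figure D5:**
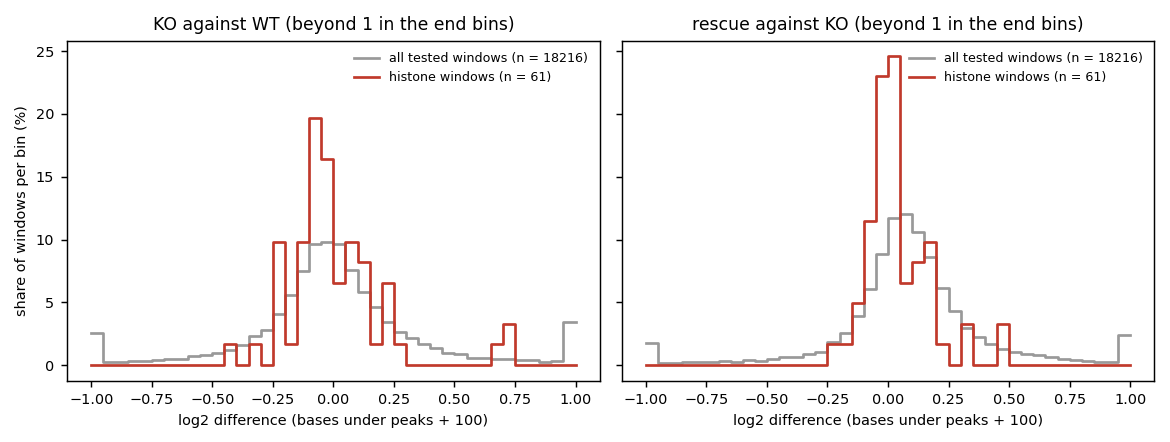
Distribution of log2 differences (x axis, log2 of bases under peaks plus 100) as the share of windows in each bin (y axis, %), for the 61 histone windows and all 18216 tested windows, with values beyond 1 in the end bins. Histone windows lie closer to zero, with 90.2% within 0.25 in KO against WT compared with 67.8% of all windows.

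The single clones were compared in the same fit. Against WT, 3 histone genes were called in KO1 (H4C13 and H2AC16 higher, H2AC25 lower), with 22.7% of all windows called in either direction, and 5 in KO2 (H1-5, H2AC16 and H4C13 higher, H2BC6 and H2AC25 lower), with 21.5% of all windows called. Between the clones themselves, 3 histone genes were called in KO2 against KO1, where 3.19% of all windows were. H2BC6 was lower in KO2, with a log2 difference of −0.49 ± 0.12 (limma adjusted p of 0.0297). The head-to-head pair H2BC13 and H2AC13, which opens the third chromosome 6 cluster, was higher in KO2. H2BC13 had 1059, 1061 and 1061 bases in WT, 795, 1029 and 920 in KO1 and 1312, 1197 and 1245 in KO2, and all KO2 libraries were above WT and all KO1 libraries below it. The log2 difference of KO2 from KO1 was 0.42 ± 0.10 for H2BC13 (limma adjusted p of 0.0185) and 0.38 ± 0.09 for H2AC13 (limma adjusted p of 0.0264). No histone gene was called here without KO1 replicate 1, KO1 replicate 3 or KO2 replicate 3, and 1 was called without KO2 replicate 1. The windows of H2BC13 and H2AC13 overlap, and 15.6% of the 50-base words of the H2BC13 window recur in another histone gene.

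Against KO2, 1 histone gene was called in Rescue1, where 12.6% of all windows were called. It was H1-5, lower by a log2 difference of −0.72 ± 0.23 (limma adjusted p of 0.0472). No histone gene was called in this comparison in 20 of 25 alternatives. In Rescue2 against KO2 limma called none, where it called 16.1% of all windows, and 6 of 61 histone genes were at an unadjusted p under 0.05, as were 31.2% of all windows. In Rescue2 against Rescue1 it also called none, where it called 2.73% of all windows, and 3 of 61 histone genes were at an unadjusted p under 0.05, as were 14.8% of all windows. The exact permutation test of 3 against 3 libraries cannot go below p = 0.1.

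Genes that act on these histone genes, or on replication, had peaks in every library. Of 17 genes for histone mRNA transcription and processing, 1 rose and 4 fell in KO, and 4 rose and none fell in rescue, by the same limma calls. For this and the next lists, the shares over all windows were 14.4% higher and 12% lower in KO and 22.4% higher and 7.25% lower in rescue, and nothing is called particular to a list. ZNF473, the zinc finger protein of the U7-dependent 3′ end processing machinery, had a log2 difference of −0.88 ± 0.09 in KO (limma adjusted p of 8.57e-07) and 0.69 ± 0.07 in rescue (limma adjusted p of 1.72e-06). CCNE1, the cyclin E1 that with CDK2 phosphorylates NPAT, had −0.46 ± 0.09 in KO (limma adjusted p of 0.000871) and 0.59 ± 0.07 in rescue (limma adjusted p of 1e-05). ERI1, an exonuclease that binds the histone mRNA stem-loop, had −0.39 ± 0.07 in KO, and HINFP, an activator of H4 genes, had 0.31 ± 0.11, with limma adjusted p-values of 0.000553 and 0.0463. NPAT and SLBP, the stem-loop binding protein, were not called in either comparison.

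Of 11 histone chaperones 1 rose in KO (DAXX, log2 difference 0.37 ± 0.08) and 2 rose in rescue (ASF1B, 0.40 ± 0.08, and HIRA, 0.35 ± 0.07). Among the replication-independent variants, MACROH2A1 rose in KO (0.53 ± 0.08) and MACROH2A2 rose in rescue (0.21 ± 0.08). Of 12 replication factors 1 rose in KO and 2 rose and 1 fell in rescue. The gene that rose in KO and fell in rescue was MCM5, a subunit of the replicative helicase, with 530 bases in WT, 1313 in KO and 826 in rescue on average, a log2 difference of 1.17 ± 0.09 in KO (limma adjusted p of 2.56e-08) and −0.62 ± 0.07 in rescue (limma adjusted p of 5.28e-06). The medians of the 4 lists lay between −0.04 and −0.01 in KO and between 0.04 and 0.12 in rescue. For these lists the values are log2 differences of bases under peaks plus 100.

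Inside the first chromosome 6 cluster, the phosphate and organic anion transporter genes of the SLC17 family were also measured. Of the 7 other protein_coding genes within the spans, 2 fell in KO, namely SLC17A1 (log2 difference −1.39 ± 0.17, 1110 bases in WT and 362 in KO on average, limma adjusted p of 4.98e-06) and SLC17A3 (−0.97 ± 0.20, limma adjusted p of 0.00123). In rescue SLC17A1, SLC17A2 and SLC17A4 fell and TRIM38, an E3 ubiquitin ligase gene, rose. The values of SLC17A2 and SLC17A4 were low, at 152.7 and 266.5 bases on average in KO and 56.67 and 128.8 in rescue. SLC17A1 averaged 218 bases in rescue.

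The labelled cell type was checked on the same windows. All 14 proximal tubule markers had a peak in every library, PAX8, CUBN and LRP2 among them, and so did 9 of 11 markers of other cell types, so a peak in the window of a whole gene did not separate cell types here. ALB had a peak in 5 libraries and UMOD in 10. The SETD2 window, which holds the edited exon, had 4053 ± 286 bases under peaks in WT, 4487 ± 396 in KO1, 4796 ± 581 in KO2, 4668 ± 182 in Rescue1 and 5295 ± 799 in Rescue2 (SD, n = 3). A called peak does not report frameshifts, so this is no check of the knockout.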

How the data were processed

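Per the labels and the study's methods, reads of 15 ATAC-seq libraries were aligned by the authors with BWA (0.7.17 in the submitters' processing notes) to hg38, and MACS2 2.2.7.1 then made a separate peak list for every library. The deposited lists give each peak's interval, its summit, a −log10 p and a −log10 q, with no read counts, so read depth is unknown. Precision is limited by the threshold of peak calling and by 3 libraries a group. Duplicate handling is not given in the sources used here.

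From the intervals, bases under peaks were counted in each protein_coding gene of GENCODE v44 plus 1 kb each side. The lists' −log10 values only ranked or filtered peaks within a library. Windows with a peak in at least 3 libraries were fitted with limma 3.58.1 (R 4.3.3; trend and robust) on log2(bases + 100), with 5 group means, no covariate, and two-sided p-values adjusted by Benjamini-Hochberg over all windows. KO is the mean of KO1 and KO2 and rescue that of Rescue1 and Rescue2. On simulated windows the script was checked to return known differences. Exact permutation tests used differences of mean bases, two-sided by doubling the smaller tail. Python 3.11.15, numpy 2.4.6, pandas 2.3.3 and scipy 1.17.1 were used.

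Named with values were called genes (up to 12 a comparison), genes whose groups differ in having a peak, leading genes of families and clusters, genes without a peak, and called genes of the lists, up to 4 a list. The genes and lists were chosen with earlier results of these data known. Alternatives were other windows, pseudocounts, filters, peak thresholds and tests, the replicate block, and leaving out each library. Some results of the variant and marker lists are not reported here.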

Additional observations from a re-analysis of the deposited data

Results flagged for a closer look

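Of the values above, 3 differed between the knockout clones by a direct test, in limma with Benjamini-Hochberg adjustment over all windows. KO2 was set directly against KO1, so the WT values did not enter these differences. H2BC6 was lower in KO2 than in KO1 by a log2 difference of −0.489, and its coding transcript was under a peak in 3 of 3 KO1 libraries and in none of the 3 KO2 libraries. H2BC13 was higher in KO2 by 0.419 on the log2 scale, in 3 of 3 libraries against 3. H2AC13, which shares its peaks with H2BC13, was higher by 0.384. For each of these, the exact permutation test of 3 against 3 libraries gave p = 0.1, the smallest it allows. No library stood far from the other 5 of its set in the KO or rescue libraries of the 11 genes called in any comparison, over 22 sets checked. Each set pooled both clones, and a difference between clones widens its range, so this check could miss a deviating library. WT libraries were not checked.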

How the results depend on the processing

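Histone genes called higher in KO than in WT numbered 3, and 5 with a −log10 q of at least 3 or with no filter, 1 with lists of equal length and 0 with the exact permutation test. Over all windows 2618 of 18216 were called higher. It was 2606 of 18157 with that −log10 q, 2420 of 20033 with no filter and 2057 of 17730 with equal lists. Histone genes called lower numbered 2, and 5 with equal lists. They numbered 1 around the start, in the MANE window chosen after seeing the data or in KO1 alone. The exact permutation test, which could call no window at this size, gave 0. Over all windows 2179 of 18216 were called lower, and 1966 in KO1 alone. It was 2693 of 17730 with equal lists, 1161 of 14935 around the start and 2084 of 18048 in the MANE window. In rescue against KO the 3 histone genes called higher became 6 with equal lists and 0 in Rescue1 or Rescue2 alone against KO2. Over all windows 4089 of 18216 were called higher, and 3522 of 17730 with equal lists. Against KO2, 1229 of 18216 windows were called higher in Rescue1 alone and 2341 in Rescue2 alone. The 1 histone gene called lower in rescue became 2 without flanks or with equal lists, 3 in the MANE window and 0 in Rescue2 alone. Over all windows 1321 of 18216 were called lower, and 589 in Rescue2 alone. It was 1349 of 17829 without flanks, 1357 of 17730 with equal lists and 1283 of 18048 in the MANE window. The exact permutation test called 0 in KO1 against WT, KO2 against WT and KO2 against KO1. KO2 against WT gave 1 around the start, and KO2 against KO1 gave 1 without flanks or with equal lists. Rescue1 against KO2 gave 0 in 8 of the alternatives, namely 2 kb flanks, the start, a −log10 q of at least 3, the MANE window, a pseudocount of 10, no filter, the replicate block and the exact permutation test. Rescue2 against KO2 gave 1 without flanks, with a −log10 q of at least 3 or with no filter, and 3 with equal lists, where Rescue2 against Rescue1 gave 1. For single clones, counts over all windows are not given in these alternatives or with 1 library left out. With equal lists, histone genes without overlap between KO and WT numbered 1 higher and 6 lower of 61, and between rescue and KO 0 lower. Of all 17730 windows, 1790 were higher and 2530 lower without overlap in KO, and 542 were lower in rescue. The log2 difference of H1-5 in KO against WT turned to −0.13 without flanks, −0.0074 around the start and −0.27 with equal lists, and that of H2BC6 to 0.047 around its annotated start, which is not the start of its coding transcript.

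Leaving out 1 library at a time gave 2 to 5 histone genes called higher and 2 to 3 lower in KO against WT, the 5 without WT replicate 1. Over all windows 2945 of 18179 were called higher there, compared with 2618 of 18216 with every library. In rescue against KO leaving out 1 library gave 1 to 8 histone genes higher and 1 to 2 lower, with 1 higher without Rescue1 replicate 3, 5 without KO1 replicate 2, 8 without Rescue2 replicate 3 and 2 lower without KO2 replicate 2. Over all windows 3141 of 18203 were called higher without Rescue1 replicate 3 and 3479 of 18194 without KO1 replicate 2. Without Rescue2 replicate 3 it was 5621 of 18205. Without KO2 replicate 2, 1362 of 18205 windows were called lower. The single clones gave 1 to 4 in KO1 against WT (1 without KO1 replicate 2), 5 to 6 in KO2 against WT, 0 to 3 in KO2 against KO1, 0 to 1 in Rescue1 against KO2, 0 to 3 in Rescue2 against KO2 (3 without Rescue2 replicate 3) and 0 to 1 in Rescue2 against Rescue1. Genes without overlap numbered 5 to 11 higher (11 without WT replicate 1) and 3 to 8 lower (8 without WT replicate 3) in KO against WT, and 1 to 3 higher (3 without Rescue2 replicate 3) and 1 to 1 lower in rescue against KO. Leaving out a library can only keep or raise these counts, so their lower ends are the full counts and show no stability. Counts over all windows are not given for these reduced sets. Genes with a peak in every library numbered 57 to 61 and genes with none 8 when peak thresholds, list lengths, the overlap or 1 library were changed, while without flanks 57 had a peak in every library and 9 had none, and over the MANE transcripts alone 56 and 9. For the presence of peaks too, leaving out 1 library can only keep or raise these counts. The replicate block left 3 higher and 2 lower in KO against WT and 3 higher and 1 lower in rescue against KO. Same-numbered libraries did not deviate together (mean r = −0.00549 over 30 pairs, against 0.00274 over 60 others), and 4 of 15 libraries were closest to their own number. Read depth is unknown, and a base outside a called peak may lie just under the threshold. The causes of these changes were not tested.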
